A study of Mus musculus with 18 samples.

Results

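Voltage-gated calcium channels were examined in the spinal dorsal horn (DHSC) through 10 genes, taken as the rows of the count table that carry the symbols *Cacna2d1*, *Cacna2d2*, *Cacna2d3*, *Cacna1a*, *Cacna1b*, *Cacna1c*, *Cacna1d*, *Cacna1g*, *Cacna1h* and *Cacna1i*. All 10 were found among the 55573 genes of the table, and all 10 had enough counts to be tested in every comparison. The 18 samples were ipsilateral DHSC from C57BL/6 mice, collected 2 h after injection of a 2% formalin solution in the hind paw. The groups were 6 F1/proestrus females, with a short pause between both phases of pain behavior and the cytology of proestrus, 6 F2/metestrus females, with a long pause and the cytology of metestrus, and 6 males. All 18 mice had received formalin, so the values say nothing about the effect of the injection. The female groups were defined by behavior together with cycle stage, and the part of each cannot be told apart.

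Each voltage-gated calcium channel is built around an α1 subunit that forms the pore and senses voltage, and most of those with a high activation threshold also carry a β subunit inside the cell and an α2δ subunit outside it. The α2δ subunits bring channels to the membrane and to release sites, and the α2δ proteins encoded by *Cacna2d1* and *Cacna2d2* are the binding sites of gabapentin and pregabalin, which are prescribed for neuropathic pain. In the dorsal horn, Cav2 channels trigger transmitter release from sensory and local terminals, Cav1 channels feed calcium to persistent firing and gene regulation, and Cav3 channels open near rest and shape burst firing.

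Total counts lay between 73590509 and 125724156 per sample, and the lowest count of any of the 10 genes in any sample was 565. At this depth 3 counts, taken as the smallest signal, were worth 0.0240 to 0.0407 CPM (counts scaled to a common library total after TMM normalization), which allows for counting error alone. By the numbers in the table's header the libraries fell into 2 separate runs of consecutive numbers, called here the first and the second library-number series, and every group had 3 samples in both. What the series are is not given in the sources used here. Markers of dorsal horn neurons were well detected in every sample, with 337 to 420 CPM for 6 excitatory and 652 to 900 CPM for 6 inhibitory markers, each summed. F1/proestrus sample 5 stood apart, with 425 CPM of 6 sensory ganglion neuron markers against at most 5.94 CPM in the other samples. It also had the most of 6 motor neuron markers (322 CPM, against 22.9 to 191 CPM in the others). Male 5 had the most of 3 Schwann cell markers, 594 CPM against at most 531 CPM in the other samples. Since the tissue is bulk, fewer cells of a type and less RNA per cell cannot be told apart for any gene below.

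The most abundant of the 10 transcripts was that of *Cacna2d3*, an α2δ subunit that does not bind gabapentinoids. Levels between genes were compared as CPM per kilobase (kb) of annotated exon, over all 18 samples. *Cacna2d3* had 12.7 ± 1.12 CPM per kb (SD, n = 18), and its lowest sample (9.44) was above the highest sample of every other of the 10 genes. *Cacna2d2* came next with 4.25 ± 1.02 CPM per kb, and *Cacna1a*, the pore of P/Q-type channels, followed with 3.21 ± 0.432. *Cacna2d1*, the main gabapentinoid target for pain relief, had 2.62 ± 0.375 CPM per kb. In every one of the 18 samples *Cacna1a* was above *Cacna2d1*, although the ranges of both genes over samples overlapped.

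The remaining pore subunits were lower. *Cacna1g* and *Cacna1h*, which encode T-type pores, had 1.86 ± 0.227 and 1.76 ± 0.294 CPM per kb (SD, n = 18), and *Cacna1g* was the higher in only 12 of 18 samples, so the order of this pair did not hold beyond the spread. *Cacna1b*, the N-type pore blocked by ziconotide, had 1.28 ± 0.320 CPM per kb. *Cacna1i*, the third T-type pore gene, had 1.02 ± 0.218. The L-type pore genes were the lowest, *Cacna1d* with 0.659 ± 0.110 and *Cacna1c* with 0.505 ± 0.0902 CPM per kb. Apart from *Cacna2d3* and *Cacna2d2*, all neighbours in this order had overlapping ranges. The order was the same when the longest transcript of each gene replaced the total exon length, although the levels themselves moved.

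**Figure D1:**
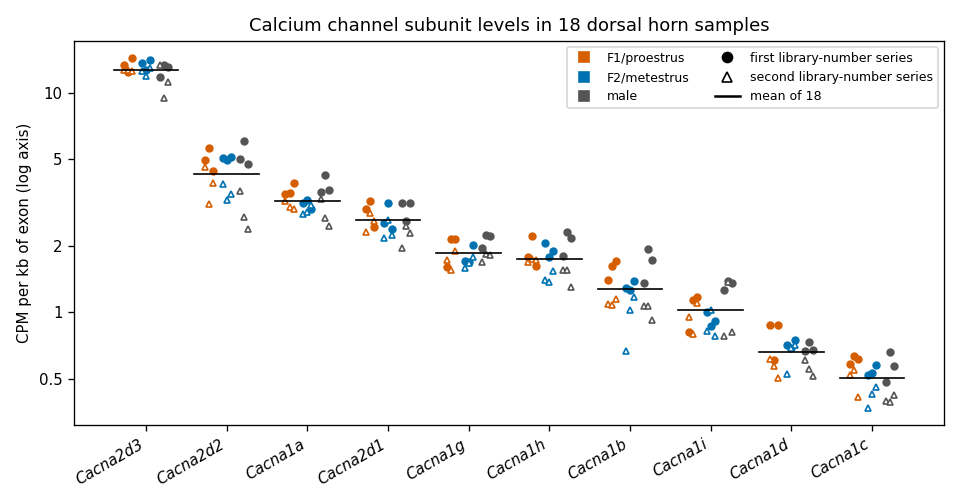
Level of the 10 calcium channel genes in each of the 18 DHSC samples, in CPM per kb of exon on a log axis, with colours for the 3 groups, filled circles for the first library-number series, open triangles for the second and a bar for the mean of 18 samples. *Cacna2d3* lies above all other genes in every sample, and most triangles lie below the circles of the same gene.

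Within the α2δ class, 64.1 ± 3.62% of the CPM per kb came from *Cacna2d3* (SD, n = 18), 21.2 ± 3.32% from *Cacna2d2*, 13.3 ± 1.88% from *Cacna2d1* and 1.46 ± 0.217% from *Cacna2d4*. The share of *Cacna2d1* was 13.4 ± 1.57% in F1/proestrus, 12.6 ± 1.67% in F2/metestrus and 13.9 ± 2.41% in males (SD, n = 6 each). Its range over samples, 10.3% to 16.7%, lay below that of *Cacna2d3* (57.8% to 69.9%) throughout. Among the 10 α1 genes, the Cav2 family held 47.6 ± 1.84% of the CPM per kb, the Cav3 family 41.1 ± 2.24% and the Cav1 family 11.3 ± 0.947% (SD, n = 18). The Cav2 share ranged from 43.6% to 50.4% and the Cav3 share from 36.4% to 45.2%. *Cacna1a* alone held 28.5 ± 1.83%, and *Cacna1e*, the R-type pore gene, held 7.87 ± 0.708%. The pores of retina and skeletal muscle, *Cacna1f* and *Cacna1s*, held 0.257 ± 0.102% and 0.729 ± 0.479%. These shares weigh each gene by its annotated exons and depend on that length, as *Cacna2d3* took 73.8% of its class with the longest transcripts.

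All 10 genes are multi-exon genes with long transcripts, placed here on GRCm38. *Cacna2d1* (chromosome 5, 15934691 to 16374511, plus strand) has 12416 bases of exon in 42 blocks and, with 40.7% GC in its longest transcript, the lowest GC content of the 10. *Cacna2d2* (chromosome 9, 107399612 to 107529343, plus strand) has 7947 bases of exon, the fewest of the 10, and 55.8% GC. *Cacna2d3* (chromosome 14, 28904943 to 29721864, minus strand) has the longest span, 816922 bases, with 8720 bases of exon and 49.1% GC. *Cacna1c* (chromosome 6, 118587240 to 119196418, minus strand) has the most exon sequence, 21191 bases. The median gene tested between the library-number series had 3005 bases of exon. None of the 10 shared exon bases with another gene on its own strand. On the other strand *Cacna1d* shared 589 bases with *Chdh*, *Cacna1a* 435 with *Gm16183*, *Cacna1h* 158 with *Tpsg1* and *Cacna2d2* 82 with *Gm17141*. Whether reads were counted by strand is not stated, so reads from these stretches cannot be assigned to either gene.

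The comparison of F2/metestrus with F1/proestrus asked whether transcripts differed between females with a long and a short pause in pain behavior. None of the 10 genes reached a false discovery rate (FDR) below 5% by the quasi-likelihood method of edgeR, where 0% of all genes passed (0 of 24042). At an unadjusted p under 0.05, 1 of the 10 was below the threshold, against 2.48% of all genes, and DESeq2 also called none of the 10. The gabapentinoid targets overlapped between the groups. *Cacna2d1* ranged from 28.9 to 39.9 CPM in F1/proestrus, with a median of 33.9, and from 27.1 to 39.2 CPM in F2/metestrus, with a median of 30.8. Its mean was 0.923-fold in F2/metestrus, with a 95% interval of 0.799 to 1.07. *Cacna2d2* ranged from 24.7 to 44.4 CPM, with a median of 35.7, in F1/proestrus and from 25.7 to 40.5 CPM, with a median of 34.7, in F2/metestrus. The interval for *Cacna2d2* ran from 0.777 to 1.19-fold. The tightest interval was that of *Cacna2d3*, with 113 ± 6.44 CPM in F1/proestrus and 113 ± 6.76 CPM in F2/metestrus (SD, n = 6 each), or 0.922 to 1.08-fold.

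Among the pore genes, the smallest unadjusted p was that of *Cacna1a*, which ranged from 33.8 to 44.3 CPM (median 38.1) in F1/proestrus and from 32.0 to 36.9 CPM (median 34.3) in F2/metestrus. The groups overlapped, and the log2 difference of -0.15 (SE 0.0693) had an adjusted p of 0.99998 in edgeR. The other Cav2 pore gene among the 10, *Cacna1b*, had the largest log2 difference of the 10, -0.25, with an interval of 0.660 to 1.08-fold. *Cacna1c* had a log2 difference of -0.20 and *Cacna1d* one of 0.01. The T-type genes were between -0.15 (*Cacna1i*) and -0.09 (*Cacna1g*). In all, 9 of 10 log2 differences were below 0, as were 12059 of all 24042 genes. The median of the 10 was -0.11, where the median over all genes was 0.00.

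The comparison of males with females addressed sex differences in the DHSC after formalin. None of the 10 genes passed the threshold, where 0.197% of all genes did (49 of 24862; 0.149% higher and 0.0483% lower in males). *Cacna2d1* ranged from 24.4 to 39.1 CPM in the 6 males, with a median of 31.5, and from 27.1 to 39.9 CPM in the 12 females, with a median of 32.1. The fold in males was 0.990, with a 95% interval of 0.860 to 1.14. *Cacna2d2* was more scattered in males (19.1 to 47.8 CPM) than in females (24.7 to 44.4 CPM), and its interval was 0.740 to 1.19-fold. *Cacna2d3* ranged from 82.3 to 116 CPM in males and from 104 to 125 CPM in females, a log2 difference of -0.11 (SE 0.0615, adjusted p = 0.557 in edgeR). The male samples at the low end were 5 and 6, with 82.3 and 97.3 CPM, and the difference was -0.06 without male 5. The 3 Schwann cell markers summed to 221 to 432 CPM in F1/proestrus, 244 to 372 CPM in F2/metestrus and 334 to 594 CPM in males. These ranges overlapped. Of the 3, *Ncmap* was higher in males (0.67, edgeR adjusted p = 0.00654), a gene named after its values were seen. *Prx* (0.60, edgeR adjusted p = 0.0942) and *Pmp2* (0.53, edgeR adjusted p = 0.546) did not pass. The part of these cells in any sex difference was not tested.

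Of the 10, *Cacna1i* had the largest difference between the sexes. Its values in males were 12.4, 13.8, 13.4, 7.69, 13.5 and 8.04 CPM, and those in females ranged from 7.73 to 11.6 CPM with a median of 9.19. Thus 4 males were above every female, male 6 lay within the female range and male 4 just below its lowest sample. The log2 difference was 0.29 (SE 0.125), with an unadjusted p under 0.05 and an adjusted p of 0.444 in edgeR. It was 0.43 in the first series, 0.12 in the second and 0.24 without male 5. At an unadjusted p under 0.05, *Cacna1i* was 1 of 10, against 9.72% of all genes. The other pore genes lay between -0.11 (*Cacna1d*) and 0.13 (*Cacna1g*) on the log2 scale. Of the 10 genes 5 were below 0, as were 12530 of all 24862 genes. Whether the sex difference itself changed between the series was tested as an interaction, a test chosen after the data were seen. None of the 10 passed, where 0% of all genes did (0 of 26075). The smallest p were those of *Cacna2d2* (difference of log2 changes -0.41, adjusted p = 0.970) and *Cacna1a* (-0.25, adjusted p = 0.970). The interaction for F2/metestrus against F1/proestrus passed for none of the 10 either, and for 0.0079% of all genes (2 of 25332).

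**Figure D2:**
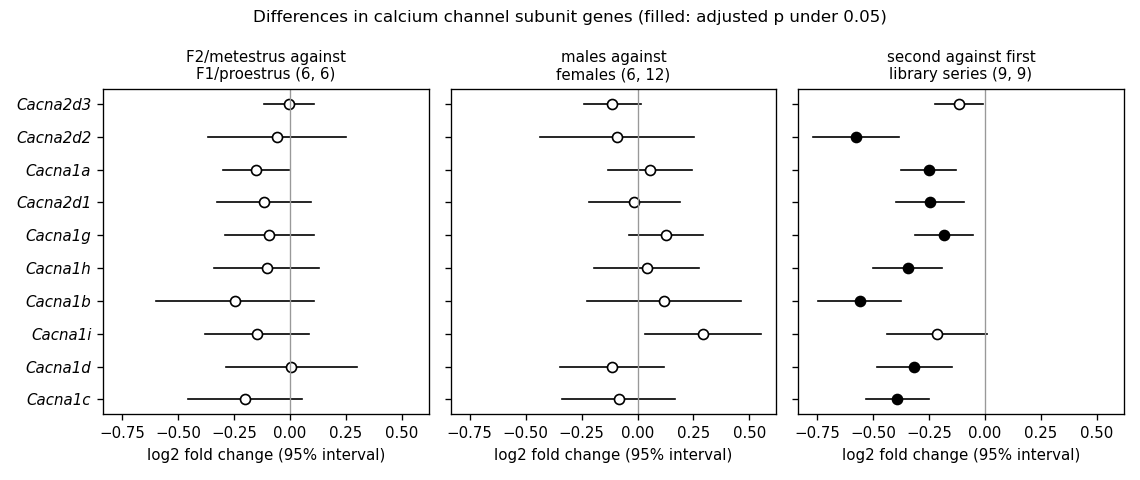
Log2 differences of the 10 genes with 95% intervals for F2/metestrus against F1/proestrus, males against females, and the second against the first library-number series, with filled points for an adjusted p under 0.05 and the numbers of samples in the titles. All points are open in the comparisons of groups, whereas 8 of 10 are filled and below 0 between the series.

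The 10 genes differed between the library-number series, in which every group took part equally. With the group as a covariate, 8 of 10 were lower in the second series and none was higher, where 12.7% of all genes were lower and 14.2% higher (26.9% in either direction, 25180 tested). At an unadjusted p under 0.05, 9 of 10 were below the threshold, against 37.6% of all genes. All 10 log2 differences were below 0, as were 12406 of all 25180 genes, with a median of -0.28 against 0.00 over all genes. Each series held 3 samples of every group, so the split does not follow the groups. The series hold different samples, so differences between mice and between libraries cannot be told apart here. The origin of the split was not tested.

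Cell type markers moved across the same split, and are named here after their values were seen. Of the 6 markers of excitatory neurons, *Tlx3* (0.41), *Prrxl1* (0.28) and *Tac2* (0.29) were higher in the second series on the log2 scale and none was lower. Their sum was 337 to 385 CPM in the first and 368 to 420 CPM in the second series. Of the 6 markers of inhibitory neurons only *Slc6a5*, the glycine transporter gene, passed, and it was lower (-0.43). *Pax2* (0.26), *Pdyn* (0.08), *Gad2* (-0.11), *Gad1* (-0.025) and *Slc32a1* (-0.0011) went both ways and did not pass. The sum of the 6 was 779 to 900 CPM in the first and 652 to 807 CPM in the second series. *Scn10a* was higher (7.03) among the sensory ganglion markers. These markers summed to 425 CPM in F1/proestrus 5 of the second series. They summed to at most 4.47 CPM in the first series and at most 5.94 CPM in the other samples of the second. Microglial markers went both ways, with *Cx3cr1* lower (-0.21) and *Tmem119* higher (0.16). So did endothelial markers, with *Flt1* lower (-0.27) and *Cldn5* higher (0.34). Of the 4 markers of vascular smooth muscle cells and pericytes only *Pdgfrb* passed, and it was lower (-0.28). *Myh11* (-0.33), *Acta2* (0.13) and *Tagln* (0.09) went both ways and did not pass. None of the motor neuron, oligodendrocyte or astrocyte markers passed, nor any of the 3 Schwann cell markers. Of all genes, 26.9% passed in either direction. The part of cell composition in the values of the 10 genes was not tested.

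Among the α2δ genes, *Cacna2d2* had the largest fall. It ranged from 35.0 to 47.8 CPM (median 39.6) in the first series and from 19.1 to 36.5 CPM (median 27.4) in the second. Only the highest sample of the second series, F1/proestrus 4, lay within the range of the first. The log2 difference was -0.58 (SE 0.0919, edgeR adjusted p = 1.13e-04), or 0.670-fold. *Cacna2d1* ranged from 29.9 to 39.9 CPM (median 36.6) and then from 24.4 to 35.3 CPM (median 28.9). It fell by 0.25 on the log2 scale (SE 0.0729, adjusted p = 0.0161 in edgeR), and the ranges overlapped. *Cacna2d3* had 115 ± 6.99 and 106 ± 10.3 CPM (SD, n = 9 each), and its log2 difference of -0.12 did not pass (edgeR adjusted p = 0.0954). The α2δ mixture differed accordingly. *Cacna2d2* took 23.7 ± 1.94% in the first series and 18.7 ± 2.35% in the second (SD, n = 9 each), and the *Cacna2d3* share was 61.6 ± 2.92% and 66.6 ± 2.27%, while *Cacna2d1* had 13.3% in both.

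*Cacna1a* and *Cacna1b*, the Cav2 pore genes among the 10, were lower in the second series. *Cacna1b* ranged from 12.6 to 19.4 CPM in the first series and from 6.64 to 11.7 CPM in the second. It was the only one of the 10 whose 9 second-series samples were all below the 9 of the first, as was the case for 2.59% of all genes. Its log2 difference was -0.56 (SE 0.0896, edgeR adjusted p = 1.16e-04). *Cacna1a* fell by 0.25 on the log2 scale, from 40.0 ± 4.38 to 33.4 ± 2.89 CPM (SD, n = 9 each; edgeR adjusted p = 0.00324). The L-type genes were lower as well, with log2 differences of -0.39 for *Cacna1c* (edgeR adjusted p = 2.54e-04) and -0.32 for *Cacna1d* (0.00557).

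Among the T-type genes, *Cacna1h* fell by 0.35 on the log2 scale, from 19.2 ± 2.37 to 15.1 ± 1.58 CPM (SD, n = 9 each; edgeR adjusted p = 0.00166). *Cacna1g* fell by 0.18 (edgeR adjusted p = 0.0355), a call that was lost when any 1 of 8 samples was left out (F1/proestrus 3, 4 and 5, F2/metestrus 3 and 4, males 3, 4 and 6), with adjusted p-values up to 0.0800. *Cacna1i* ranged from 8.03 to 13.8 CPM and from 7.69 to 13.5 CPM, a log2 difference of -0.22 that did not pass (edgeR adjusted p = 0.150), but did when male 5 was left out (-0.30, adjusted p = 0.0429). *Cacna2d3* passed without F1/proestrus 2 or without male 4. Without F1/proestrus 5, the sample high in sensory ganglion markers, 7 of 10 were called.

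**Figure D3:**
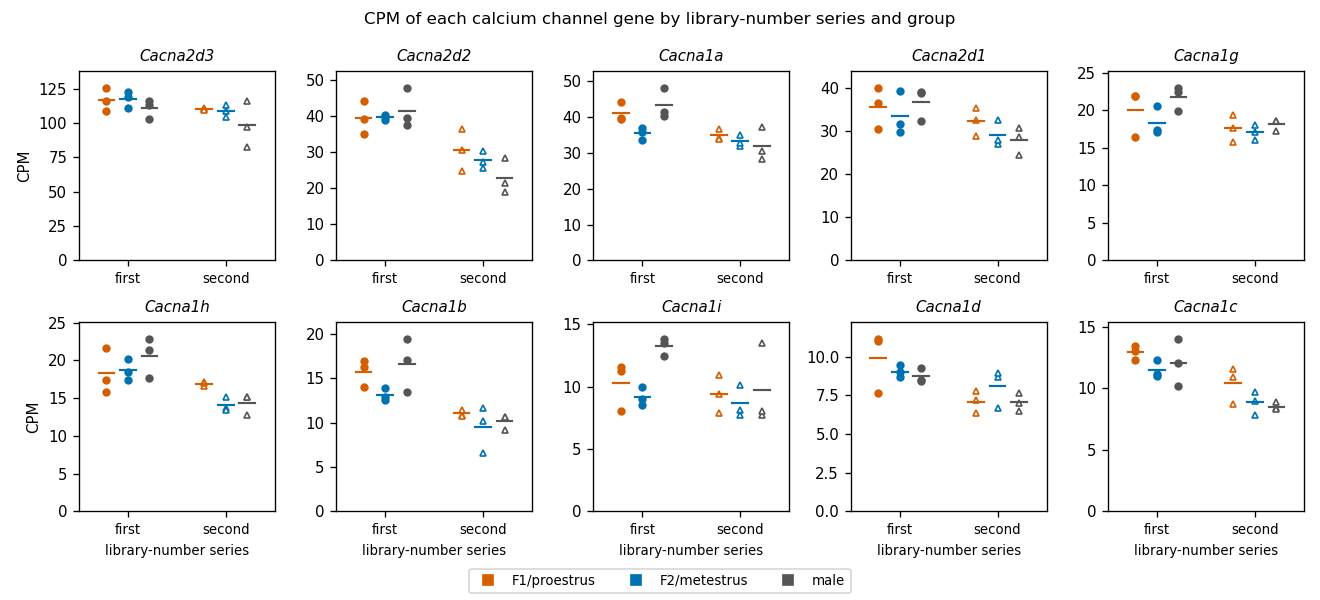
CPM of the 10 genes in each of the 18 samples, by library-number series (horizontal axis) and group (colour), with a short bar for the mean of the 3 samples of a group in a series. *Cacna1b* is the only gene without overlap between the series (lowest sample of the first 12.6, highest of the second 11.7 CPM), and *Cacna2d2* has lower means in the second series in all 3 groups.

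The direction was the same within every group. With the 3 samples of each series from a single group alone, all 10 log2 differences were below 0 in F1/proestrus, in F2/metestrus and in males. The median over all genes was 0.0033, 3e-04 and 0.0037 in these groups. Of the 10, 0, 2 and 3 were called, where 0.228%, 2.26% and 3.77% of all genes were called lower. *Cacna2d2* had log2 differences of -0.37 in F1/proestrus, -0.52 in F2/metestrus and -0.86 in males. *Cacna1b* had -0.51, -0.47 and -0.72. These within-group values show the split in each group, while whether its size differed between groups was tested only through the interactions above.

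Exon length and GC content moved with the split. Over 25165 genes, the log2 difference between the series had a Spearman rho of -0.223 with exon length and of 0.297 with GC content, across genes, which are not independent replicates. Of the 2832 tested genes with at least 7947 bases of exon, the length of the shortest of the 10, 46.8% were lower and 3.14% higher in the second series. After correction of each sample for GC content, 9 of the 10 were lower, where 12.4% of all genes were. After correction for GC content and exon length together, 4 of the 10 were lower, where 10.5% of all genes were. These were *Cacna2d2* (-0.56), *Cacna1b* (-0.46), *Cacna1h* (-0.32) and *Cacna1a* (-0.18), all on the log2 scale with SE of 0.0827, 0.0856, 0.0653 and 0.0490. The differences of *Cacna2d1* and *Cacna2d3* moved to 0.02 (SE 0.0510) and 0.00 (SE 0.0459). Thus the value of *Cacna2d1* between the series depended on this correction, and that of *Cacna2d2* hardly did. In neither comparison of groups did a correction bring any of the 10 past the threshold.

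**Figure D4:**
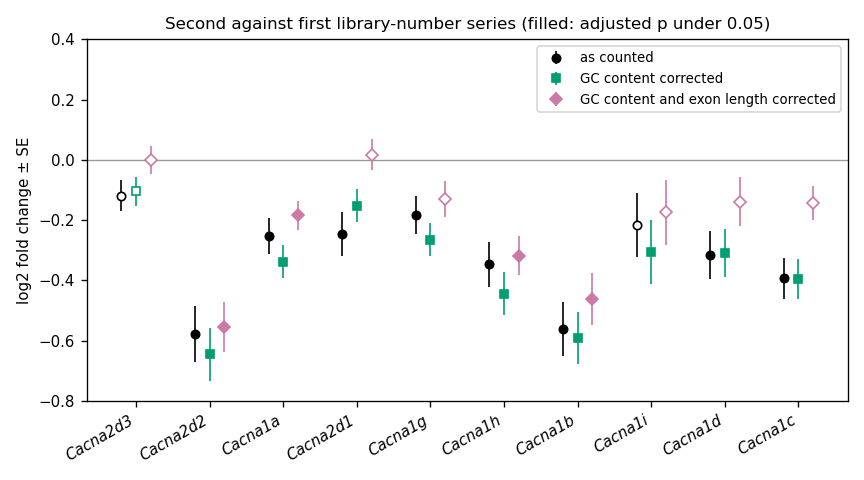
Log2 difference (± SE) between the second and the first library-number series for the 10 genes as counted, after correction for GC content, and after correction for GC content and exon length, with filled points for an adjusted p under 0.05. With both corrections *Cacna2d1* and *Cacna2d3* lie near 0, and *Cacna2d2*, *Cacna1a*, *Cacna1h* and *Cacna1b* stay filled.

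The 10 genes varied little around the mean of their group and series, with SD of 0.12 (*Cacna1a* and *Cacna2d3*) to 0.26 (*Cacna1i*) on the log2 scale. Once these means were taken off, pairs of the 10 genes were compared over the 18 samples with exact permutations within group and series. The 45 pairs had a median r of 0.13, and 28 were above 0. The strongest relation was between 2 α2δ genes in opposite directions. *Cacna2d1* and *Cacna2d3* had r = -0.739 (exact p = 8.57e-04, adjusted over 45 pairs 0.0386) and rho = -0.833, with r = -0.868 in the first and -0.720 in the second series, and -0.677 without the 2 samples farthest from the median of *Cacna2d1*. *Cacna1b* and *Cacna1g* had r = 0.577 (exact p = 0.00210, adjusted 0.0473) and rho = 0.670 (adjusted 0.0936), with r = 0.776 and 0.460 in the series and 0.575 without 2 samples. Whichever 1 sample was left out, at most 1 of the 45 pairs passed.

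*Cacna2d1* and *Cacna2d3* also moved with the GC content of the library's transcripts, in opposite directions. For each library a GC index was taken as the median log2 deviation of the genes in the top 20% of GC content minus that of the bottom 20%. The index was chosen after seeing the data, and the 10 genes were not left out of it. Genes of low GC content enter it with a negative sign. The negative r of *Cacna2d1*, the lowest of the 10 in GC content, is therefore no independent test. With group and series means taken off, *Cacna2d1* had r = -0.860 with this index (exact p = 2.79e-04, adjusted over 20 relations 0.00557; rho = -0.862, exact p = 3.86e-04). It had r = -0.917 in the first and -0.766 in the second series, and -0.836 without the 2 samples farthest from the median of the index. *Cacna2d3* had r = 0.607 (exact p = 0.00405, adjusted 0.0405; rho = 0.777), with 0.861 and 0.490 in the series. No other of the 10 passed with this index, and none passed with a like index of exon length. The part of GC content in the relation of *Cacna2d1* with *Cacna2d3* was not tested.

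The transcripts most like *Cacna2d1* were sought among 17804 genes with a mean of at least 1 CPM, with group and series means taken off. Those with the highest r over the 18 samples were *Calu* (r = 0.956), *Cd86* (r = 0.954) and *Deaf1* (r = 0.947). These 3 are the top of a large group, since 10% of the genes had r above 0.669. Across 17801 genes, the r with *Cacna2d1* had a Spearman rho of -0.592 with GC content, so that genes of low GC content followed *Cacna2d1* most. The values share the same libraries, and no p is given.

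**Figure D5:**
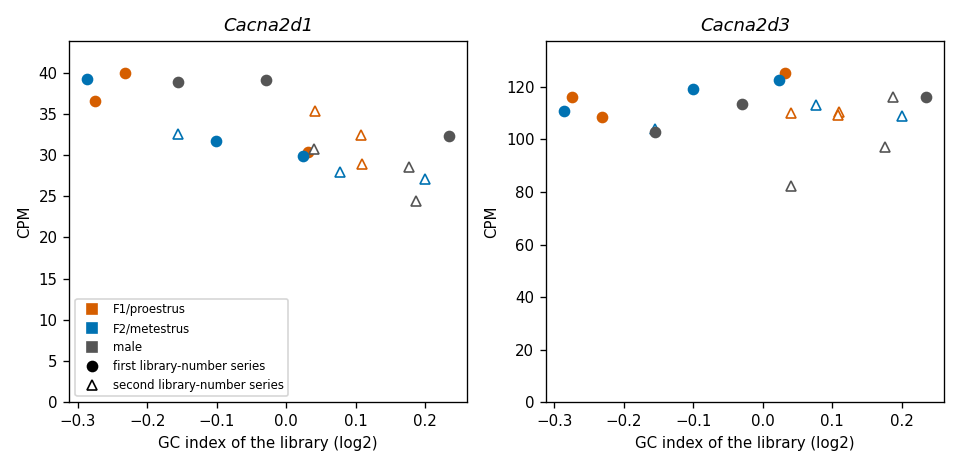
CPM of *Cacna2d1* and *Cacna2d3* in the 18 samples against the GC index of each library (log2), with colours for groups and symbols for the library-number series. *Cacna2d1* falls as the index rises (r = -0.860 with group and series means taken off) and *Cacna2d3* rises (r = 0.607).

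The other channel subunits give the context of the 10. Of the 16 listed, none passed between the female groups (14 tested) or between the sexes (15 tested). The β subunit genes, whose proteins carry the pore to the membrane, were abundant, with means of 111 CPM for *Cacnb4* in F1/proestrus and 112 CPM in F2/metestrus (n = 6 each). *Cacnb3* had 49.2 CPM in F1/proestrus and 39.4 CPM in F2/metestrus on average (log2 difference -0.32, adjusted p = 0.99998 in edgeR), and its highest sample was F1/proestrus 5, the one high in sensory ganglion markers, without which the difference was -0.16. The other β genes and *Cacna2d4* lay between -0.07 (*Cacnb1*) and 0.02 (*Cacna2d4*), and *Cacna1e* had -0.23. Between the sexes *Cacna1s*, the skeletal muscle pore gene, had 0.849 CPM in males and 0.379 CPM in females (log2 difference 1.16, SE 0.331, edgeR adjusted p = 0.236). Its highest sample was male 5 with 1.49 CPM, without which the difference was 0.91. *Cacnb1* (0.10), *Cacnb2* (-0.09), *Cacnb4* (-0.07), *Cacnb3* (0.04), *Cacna1e* (0.06) and *Cacna2d4* (-0.03) differed by at most 0.10 on the log2 scale. Between the series 3 of 16 were higher (*Cacng3* 0.21, *Cacng2* 0.16 and *Cacnb3* 0.27) and 2 lower (*Cacna1e* -0.34 and *Cacnb2* -0.14). Of all genes, 14.2% were higher and 12.7% lower. The call of *Cacnb3* was lost when any 1 of 13 samples was left out, F1/proestrus 5 (0.18, edgeR adjusted p = 0.0711) and male 5 (0.22, adjusted p = 0.121) among them, whereas those of the other 4 held without any 1 sample. *Cacnb1* (-0.04), *Cacnb4* (-0.01) and *Cacna2d4* (-0.20) did not pass. Of the 16, 9 were below 0, as were 12406 of all 25180 genes, with a median of -0.02.

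Genes whose products bind or regulate the channels were called in neither comparison of groups, with 0 of 17 in each. The smallest p between the female groups were those of *Rem2*, a small GTPase that inhibits the channels (log2 difference -0.33), and *Thbs4*, a thrombospondin (-0.74). Both genes had their highest value in F1/proestrus 5, the sample high in sensory ganglion and motor neuron markers, with 7.27 CPM of *Rem2* and 5.83 CPM of *Thbs4*. Without this sample the log2 differences were -0.20 for *Rem2* and 0.04 for *Thbs4*. Between the sexes the smallest p were those of *Thbs2*, another thrombospondin (-0.22, edgeR adjusted p = 0.323), and *Rrad*, a relative of *Rem2* (0.34, adjusted p = 0.366). Between the series, where 12.7% of all genes were lower and 14.2% higher, 4 of 17 were lower and none higher. These were *Lrp1*, an endocytic receptor (-0.30), *Thbs2* (-0.22), *Nrxn2*, a presynaptic adhesion molecule (-0.23), and *Fmr1*, an RNA-binding protein gene (-0.23).

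Of 15 genes of the release machinery that works with Cav2 channels, none passed between the groups. *Pclo* and *Bsn*, scaffolds of the active zone, had log2 differences of -0.18 and -0.19 in F2/metestrus against F1/proestrus, and *Stx1a*, a SNARE protein gene, one of 0.22 in males against females (edgeR adjusted p = 0.429), followed by *Vamp2* with 0.10. Between the series, where 12.7% of all genes were lower and 14.2% higher, 8 were lower and 2 higher. The smallest p of those lower were those of *Unc13a*, a priming factor (-0.54), *Erc1*, an active zone scaffold (-0.40), *Syt2*, a calcium sensor (-0.43), and *Rims1*, which tethers channels at the active zone (-0.20). *Vamp2* (0.24), a SNARE protein gene of synaptic vesicles, was higher, and so was *Stx1a* (0.26), which is named here after its values were seen.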

How the data were processed

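The authors deposited raw read counts per Ensembl gene for 18 ipsilateral DHSC samples, without normalization. Reads were uniquely mapped to mm10 with Subread and counted on exons with featureCounts. Strand use is not stated. The methods name a TruSeq kit, whereas the labels describe SMART-Seq cDNA and Nextera XT tagmentation. A table of the authors' own comparison was used only to match gene IDs to symbols.

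Counts were filtered with filterByExpr (minimum count 10, minimum total 15), normalized with TMM and tested with edgeR 4.0.16 in R 4.3.3 (quasi-likelihood test, Benjamini-Hochberg adjustment, FDR 5%), over all genes. F2/metestrus against F1/proestrus used the 12 females, males against females all 18 samples, and the library-number series all 18 with the group as a covariate. Samples are labelled as separate samples, and p-values measure the spread between them. Exon length, GC content and positions came from GENCODE vM21 (GRCm38), which held 55480 of 55573 gene IDs. Corrections for GC content and length used smooth offsets in each sample. Correlations used log2 CPM (prior count 2) and all 46656 rearrangements within group and series, in place of a planned random permutation test. The alternatives, DESeq2 1.42.0 and limma 3.58.1 voom among them, are given in the closing section. Simulated counts were used to check the edgeR script. The 10 genes, the other gene lists, the naming rule (all 10 genes, the other subunits with fixed names, and up to 5 partner or release genes past the threshold or otherwise the 2 with the smallest p) and the library series were chosen with earlier results of these data known. A marker gene of Schwann cells is not reported here and was left out of their list.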

Additional observations from a re-analysis of the deposited data

Results flagged for a closer look

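Among 30 combinations of a gene and a group, 2 held a sample whose distance to its nearest neighbour was large against the range of its group, and chance alone gives this in about 1 group in 20. *Cacna1d* in F2/metestrus had 6.65 CPM in sample 4, below the other 5 (8.65 to 9.43 CPM). *Cacna1h* in F1/proestrus had 21.6 CPM in sample 2, above the other 5 (15.8 to 17.4 CPM).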

How the results depend on the processing

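None of the 10 genes was called in F2/metestrus against F1/proestrus under 12 alternatives or in males against females under 13, nor with any sample left out. Between the library-number series, 7 to 9 of the 10 were called with each sample left out, 4 to 5 of the other channel subunits, 4 to 5 of the partners and 9 to 11 of the release genes. Of the correlations, 0 to 1 passed with each sample left out. Within F1/proestrus, F2/metestrus and males alone, 0, 2 and 3 of the 10 genes were called between the series, 0, 0 and 1 of the other subunits, 0, 0 and 1 of the partners, and 0, 2 and 3 of the release genes. With correction for GC content and exon length, 4 of the 10 and 3 of the other subunits were called, and limma voom called 7 partners. The correction also turned *Cacna2d1* to 0.0171 and *Cacna2d3* to 3e-04 on the log2 scale. These comparisons within groups, the corrections and the samples left out of the correlations were chosen after seeing the data. So were the interactions and the indices of GC content and exon length.

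The replicate numbers were checked as a possible pairing of the samples, and the check could not settle it. Of 18 same-numbered pairs, 9 had a correlation of their deviations above 0.1 (range -0.105 to 0.228), and 1 did once the series was taken off. The own number was the best of 6 candidates in 10 of 36 cases. That count kept the difference between the series, which samples of the same number share. Correlations this weak cannot exclude a pairing. With the replicate number as a block, 1 of the other channel subunits was called in males against females, and 112 genes in place of 49 in all, while none of the 10 genes was.

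Differences below the threshold changed sign in places. Between the female groups, *Cacna2d2* was 0.0073 with voom and 0.0018 in the first series alone, *Cacna2d3* 0.0037 and 0.0052, *Cacna1d* -0.14 and *Cacna1h* 0.0249 in the first series alone. In males against females, *Cacna2d1* was 0.0168 with voom, 0.0448 with GC correction, 0.0839 with GC and length correction, 0.0723 in the first series alone and 0.0338 against F2/metestrus alone. *Cacna2d2* was 0.0532 in the first series alone, and *Cacna1c* 0.0073 against F2/metestrus alone. *Cacna1a* was -0.0080 with GC correction, -0.0862 in the second series alone and -0.0272 against F1/proestrus alone, and *Cacna1b* was -0.0128 and -0.0092 in the last 2 settings. *Cacna1h* was -0.0335 with GC correction, -0.0037 with both corrections, -0.10 in the second series alone and -0.0191 against F1/proestrus alone. With each sample left out, the ranges that crossed 0 were -0.0643 to 0.0946 for *Cacna1d*, -0.14 to 0.0251 for *Cacna2d2* and -0.0286 to 0.0248 for *Cacna2d3* between the female groups, and -0.0336 to 0.11 for *Cacna1a*, -0.0239 to 0.19 for *Cacna1b*, -0.0565 to 0.10 for *Cacna1h*, -0.0840 to 0.0465 for *Cacna2d1* and -0.25 to 0.0079 for *Cacna2d2* between the sexes.

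With the longest transcript in place of all exon bases, levels were 29.9 CPM per kb for *Cacna2d3*, 5.81 for *Cacna2d2*, 4.63 for *Cacna1a*, 4.38 for *Cacna2d1*, 2.24 for *Cacna1g*, 2.08 for *Cacna1h*, 0.861 for *Cacna1d* and 0.813 for *Cacna1c*. The shares in the class were then 73.8% for *Cacna2d3*, 14.2% for *Cacna2d2*, 10.9% for *Cacna2d1*, 31.8% for *Cacna1a*, 8.81% for *Cacna1b*, 7.05% for *Cacna1i* and 5.56% for *Cacna1c*. The cause of these changes other than by construction was not tested. At this depth all 10 genes had at least 565 counts in every sample.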
